A study of Mus musculus with 78 samples.

Results

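Lysosomal enzymes and membrane proteins were followed through the first tissues of the mouse embryo as 32 genes chosen by name, of 22563 genes shared by the 3 expression tables of the series. They comprised 8 cysteine cathepsins, 4 other proteases, 10 glycosidases and lipid enzymes, 7 membrane proteins, the cholesterol exporters Npc1 and Npc2, and the transcription factor Tfeb. All 32 had a value in every table, and 31 reached at least 1 FPKM in at least 2 libraries and were tested. FPKM counts fragments relative to transcript length and library size, so levels of different genes can be set side by side. Ctss, a cathepsin best known from antigen-presenting cells, was listed at 0 FPKM in all 30 libraries and was not tested.

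The series asked how the first lineages form between the blastocyst and gastrulation, and 30 of its 78 samples were RNA-seq libraries of polyA RNA made with Smart-Seq2. The embryos of these libraries came from C57BL/6N females mated to DBA/2N males, their labels give no genetic change or drug, and each of 15 groups had 2 libraries. In vivo, the groups were E3.5 trophectoderm and inner cell mass, E4.0 inner cell mass, E5.5 and E6.5 visceral endoderm and epiblast, and E7.5 endoderm, ectoderm, primitive streak and mesoderm. Blastocysts came from superovulated mothers, their inner cell mass was isolated by immunosurgery, and their cells were lysed directly, whereas embryos from E5.5 on came from natural matings and their RNA passed through a column. In culture, embryos flushed at E4.5 were kept for 1, 2 or 4 days in a medium with fetal bovine serum. The deposited names of the 1- and 2-day libraries instead point to a start at E4.0, and this difference was not resolved. After 4 days, visceral endoderm and epiblast were separated by enzyme digestion and dissection. For the 1- and 2-day groups the labels give whole embryos but the written protocol has a step that isolates the inner cell mass, and they are called embryos here. Values were compared only within a table: in vivo, cultured for 4 days, and cultured for 1 and 2 days.

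Lysosomes are acidic organelles that break down proteins, glycans, lipids and nucleic acids delivered by endocytosis and autophagy. Their soluble enzymes carry a mannose 6-phosphate tag that directs them from the Golgi apparatus, a proton pump in the membrane acidifies the interior, and a coat of heavily glycosylated proteins lines the inside of the membrane. The visceral endoderm, which encloses the epiblast before and during gastrulation, takes up maternal proteins and lipids through receptors at its apical surface and digests them in large vacuoles. TFEB is a transcription factor that binds an E-box element shared by many lysosomal genes and raises their expression when nutrients are scarce.

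Libraries of a pair correlated with r between 0.93 (cultured for 1 day) and 0.996 (E7.5 mesoderm) over log2(FPKM + 1). The sample descriptions do not say whether the libraries of a pair came from separate litters, so p-values measure only the spread between these samples. FPKM hold no read counts, but ratios of the lowest values gave the relative depth of libraries, which spanned 3.22-fold in vivo, with both E5.5 visceral endoderm libraries at the low end. Tissue labels were checked against marker lists. The 11 visceral endoderm markers summed to 6787 to 7524 FPKM in E6.5 visceral endoderm and 7141 to 7779 FPKM in E7.5 endoderm, against 3.66 to 22.4 FPKM in E6.5 epiblast. The 7 epiblast markers summed to 299 to 328 FPKM in E6.5 visceral endoderm, against 1180 to 1221 FPKM in epiblast. The 12 macrophage markers summed to at most 1.52 FPKM in any library. In bulk samples, fewer cells of a type and less RNA per cell cannot be told apart.

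The E-box that TFEB binds, in its shortest form CACGTG, was looked for in windows from 250 bases before to 50 bases after annotated starts, taken from RefSeq for GRCm38.p6. Such a window was found for 28 of the 32 genes, and the word, which reads the same on both strands, was present in 10 of them, or 35.7%, against 8.09% of all 27025 genes with a window. The longer forms TCACGTG and TCACGTGA contain it, and with either strand counted they were present in 28.6% and 14.3% of the 28 genes, against 4.29% and 1.12% of all genes. The 10 genes were Ctsa, Ctsd, Ctsf, Ctsl, Gaa, Gla, Glb1, Lamp1, Lgmn and Mcoln1. A match describes the letters and not a bound site. Shown here are the 80 bases before the start, 5′ to 3′ on the gene's strand and with each CACGTG in capitals, for 4 genes whose expression recurs below: the membrane glycoprotein Lamp1 (chr8:13159081-13159160, plus strand), which held 4 copies, the calcium channel Mcoln1 (chr8:3500439-3500518, plus strand), which held 2, 1 of the annotated starts of the protease Lgmn (chr12:102439093-102439172, minus strand), and the β-galactosidase Glb1 (chr9:114400998-114401077, plus strand).
Lamp1: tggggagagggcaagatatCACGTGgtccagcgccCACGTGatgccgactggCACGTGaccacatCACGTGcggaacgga
Mcoln1: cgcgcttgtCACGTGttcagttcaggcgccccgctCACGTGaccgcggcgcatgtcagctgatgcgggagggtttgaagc
Lgmn: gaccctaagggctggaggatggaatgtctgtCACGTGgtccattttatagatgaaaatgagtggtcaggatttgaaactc
Glb1: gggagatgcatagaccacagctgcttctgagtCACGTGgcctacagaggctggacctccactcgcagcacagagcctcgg
The 4 copies of Lamp1 began 61, 45, 28 and 15 bases before the start. The copies of Mcoln1 began 71 and 45 bases before it, and the single copies of Lgmn and Glb1 began 49 and 48 bases before it.

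Among the in vivo tissues, lysosomal transcripts were most abundant in E6.5 visceral endoderm and E7.5 endoderm. Their FPKM summed to 2024 to 3214 in E5.5 visceral endoderm, against 320.3 to 632 in E5.5 epiblast, and to 5375 to 5700 in E6.5 visceral endoderm, against 698 to 708 in E6.5 epiblast. E7.5 endoderm reached 4531 to 4941 FPKM, against 802 to 806 FPKM in mesoderm, 679.5 to 736 FPKM in primitive streak and 442 to 789 FPKM in ectoderm. Each endoderm sum lay above all libraries of the other tissues of the same day. In the blastocyst the sums were 2269 to 2854 FPKM in trophectoderm, 1636 to 1749 FPKM in E4.0 inner cell mass and 1639 to 1898 FPKM in E3.5 inner cell mass. Ctsl made up 23.1% of the lysosomal FPKM in E6.5 visceral endoderm and Ctsc another 16.4%, whereas in trophectoderm Psap held 28.5% and Cd63 26.3%. By mean FPKM, 8 of the 32 genes were highest in E6.5 visceral endoderm, 7 in trophectoderm, 6 in E7.5 endoderm, 5 in E3.5 inner cell mass, and 2 each in E4.0 inner cell mass, E5.5 visceral endoderm and mesoderm. The count for E3.5 inner cell mass includes Ctss, which is listed at 0 there.

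**Figure D1:**
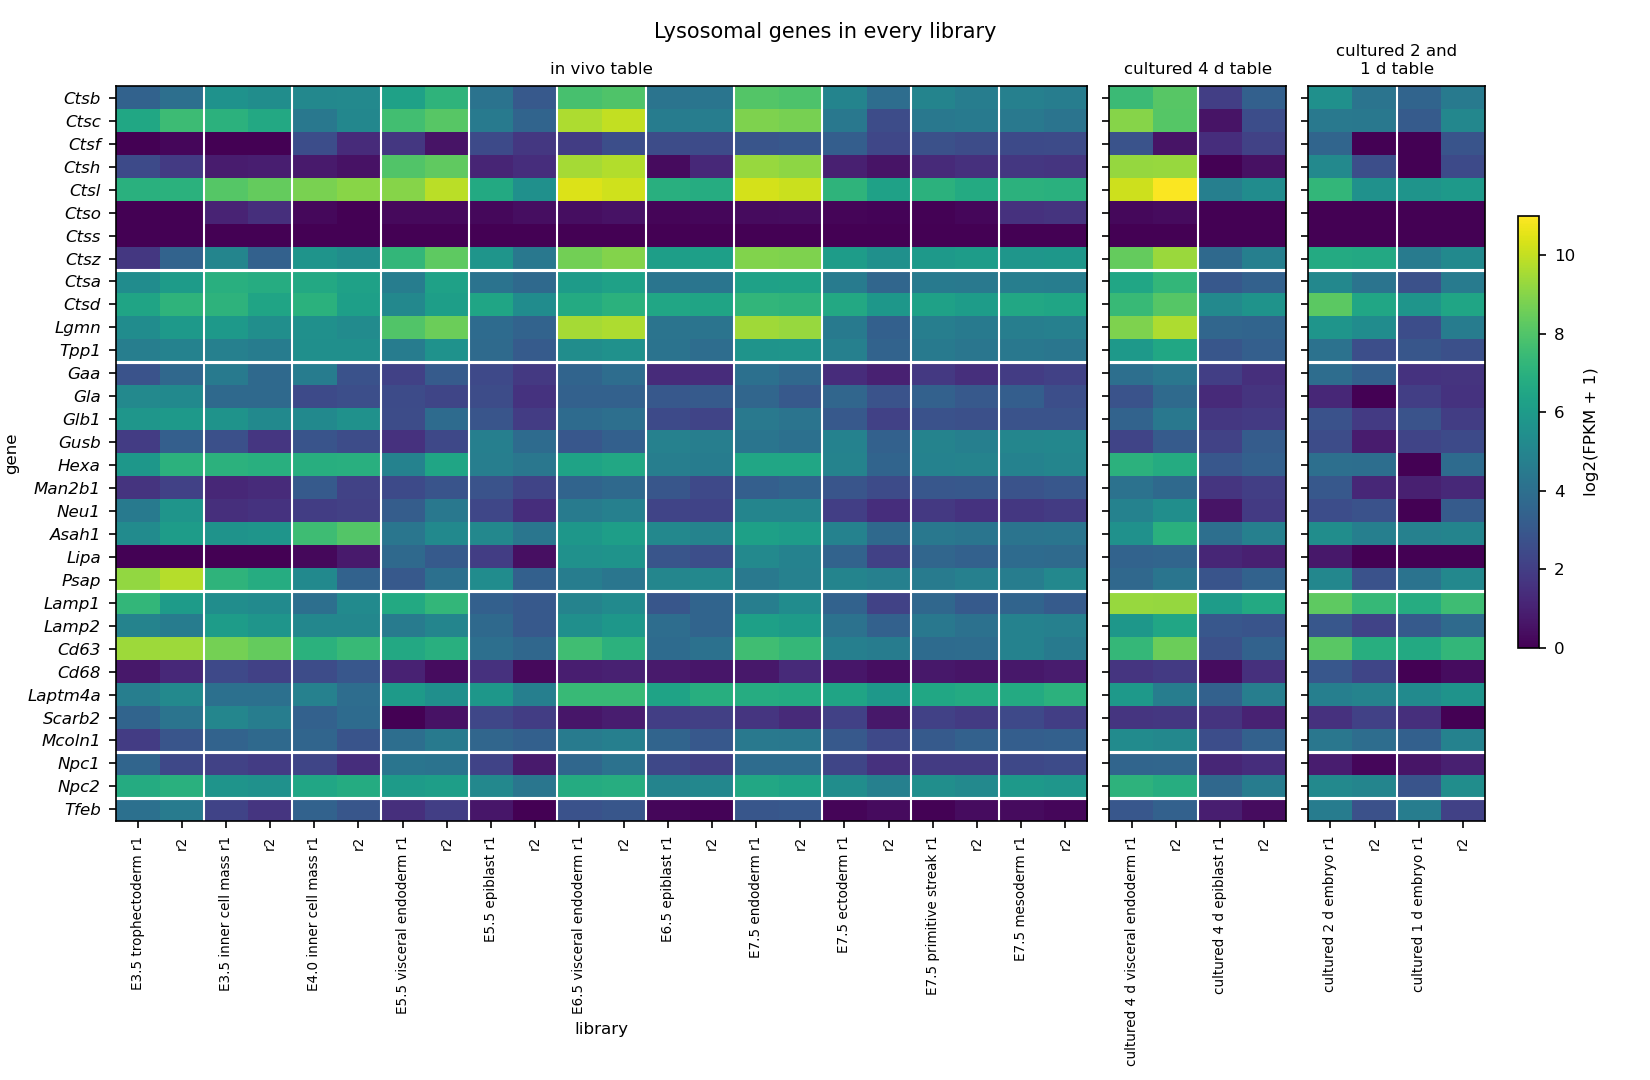
Level of each of the 32 lysosomal genes (rows, grouped by role) in each of the 30 libraries (columns, r1 and r2 of a group side by side), as log2(FPKM + 1), in 3 panels for the 3 separately made tables. The columns of E5.5 and E6.5 visceral endoderm, E7.5 endoderm and cultured visceral endoderm are brighter than their neighbours for Ctsb, Ctsc, Ctsh, Ctsl, Ctsz and Lgmn, and Psap is brightest in trophectoderm.

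Visceral endoderm was compared with epiblast at E5.5, at E6.5 and after 4 days of culture, and E7.5 endoderm with the mean of ectoderm, primitive streak and mesoderm. A gene passed if its log2 fold was 1 or more in either direction and its p, adjusted by Benjamini-Hochberg over all 13493 genes fitted in limma, was below 0.05. Log2 folds are differences of mean log2(FPKM + 1), a scale that understates the change of genes with low values. In E6.5 visceral endoderm, 19 of the 31 lysosomal genes were higher than in epiblast, a direction in which 9.58% of all genes passed, and 0 were lower, where 6.95% of all genes passed. Another 5 of the 31 had an unadjusted p under 0.05. In E5.5 visceral endoderm, 15 were higher and 2, Gusb and Scarb2, were lower, against 9.6% and 27.1% of all genes. That comparison moved with the scaling: quantile normalization gave 20 higher and 2 lower, beside 2142 and 2342 of all genes in place of 1295 and 3663, and a common total gave 18 and 2, beside 2180 and 2987. In cultured visceral endoderm, 25 were higher and 0 lower, against 13.6% and 10.8% of all genes. In E7.5 endoderm, 20 were higher and 0 lower, against 10.3% and 1.93% of all genes. The median log2 fold of the 31 genes was 1.36 at E5.5, 1.77 at E6.5, 1.79 at E7.5 and 2.47 in culture, beside -0.36, -0.06, 0.02 and -0.02 over all genes.

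Of the 31 genes, 14 were higher in all 4 of these comparisons, 5 in 3, 2 in 2, 4 in 1 and 6 in 0. The same count was not made over all genes, and all 4 comparisons set endoderm against other tissues. Libraries of visceral endoderm and epiblast did not overlap for any gene that passed in the in vivo comparisons, and overlapped in culture for 1, Laptm4a. Overlap was read only for lysosomal genes that had passed, so it adds no separate support. Its share over all genes was not counted. At E6.5 the count fell to 11 without the second visceral endoderm library and to 12 without either epiblast library. The E5.5 calls of Ctsa, Lamp2, Neu1, Npc2 and Tpp1 ended without the second epiblast library, and those of Ctsa, Neu1, Npc2 and Tpp1 also without the second visceral endoderm library. At E5.5 the count was 10 in place of 17 when only the 2 tissues compared were fitted, and both E5.5 visceral endoderm libraries were the shallowest of the table, at 0.445 and 0.439 of the depth of the first E3.5 inner cell mass library. Markers of other tissues also moved with the comparison. The 8 of primitive endoderm were at 1029 to 1185 FPKM in E6.5 visceral endoderm and 46.5 to 50.4 FPKM in epiblast. The 7 of parietal endoderm were at 575 to 739 FPKM in E6.5 visceral endoderm and 48.4 to 49.7 FPKM in epiblast, and the 8 of trophectoderm and extraembryonic ectoderm, which include Krt8 and Krt18, were at 945 to 1149 FPKM in visceral endoderm and 71.9 to 77.2 FPKM in epiblast. Their part in the result was not tested.

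**Figure D2:**
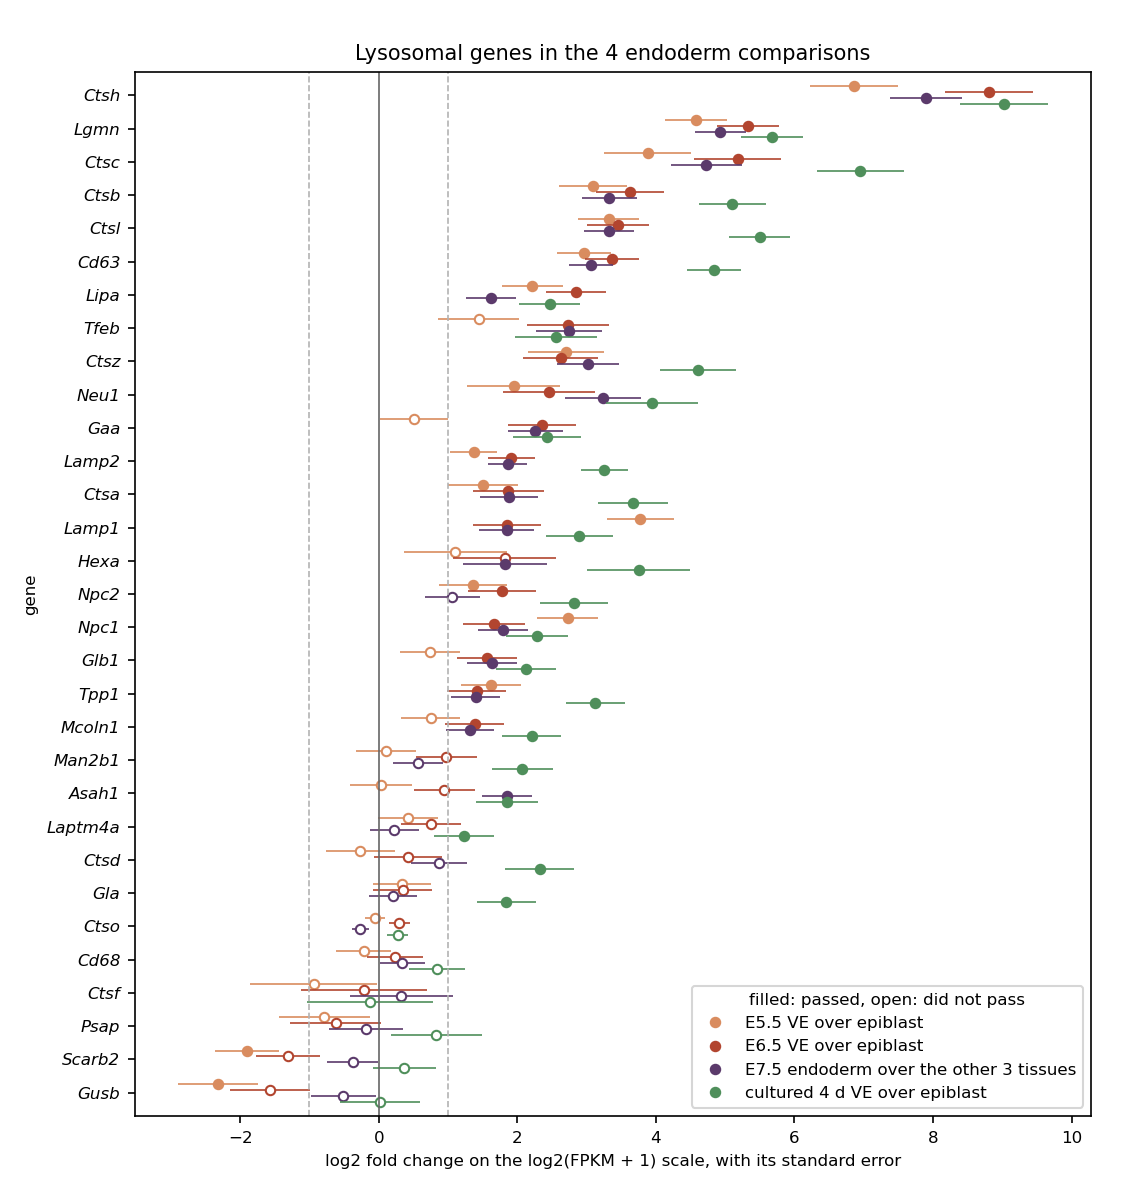
Log2 fold (log2(FPKM + 1) scale) with its standard error for each of the 31 tested genes in the 4 endoderm comparisons, sorted by the E6.5 value. Filled points passed the adjusted p and fold thresholds and open ones did not, and dashed lines mark a log2 fold of 1 in either direction. Ctsh lies farthest to the right in all 4 comparisons, and Gusb and Scarb2 hold the filled points left of 0.

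Cysteine cathepsins, which cut proteins at acid pH with a catalytic cysteine, included the gene with the largest difference, and 5 of the 7 tested were higher in every endoderm comparison: Ctsb, Ctsc, Ctsh, Ctsl and Ctsz. That gene was Ctsh, an aminopeptidase. Ctsh had 732 and 852 FPKM in E6.5 visceral endoderm, against 0.268 and 1.44 FPKM in epiblast. It had 255 and 317 FPKM in E5.5 visceral endoderm, against 1.19 and 1.74 FPKM in epiblast. In E7.5 endoderm it had 626 and 553 FPKM, against 0.478 to 2.42 FPKM in the 6 libraries of the other tissues. Ctsh was thus close to 0 in every other tissue of these days and among the most abundant lysosomal transcripts of endoderm, with no library in between. Its log2 fold was 8.81 ± 0.64 (SE), adjusted p = 3.83e-09 at E6.5 and 6.86 ± 0.64 (SE), adjusted p = 1.42e-07 at E5.5. At E7.5 it was 7.89 ± 0.52 (SE), adjusted p = 2.95e-10. After 4 days of culture Ctsh had 607 and 629.9 FPKM in visceral endoderm, against 0 and 0.422 FPKM in epiblast, a log2 fold of 9.02 ± 0.64 (SE), adjusted p = 2.58e-09.

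Ctsc, a dipeptidyl peptidase that activates other proteases, had 809.7 and 1004 FPKM in E6.5 visceral endoderm, against 23.7 and 24.1 FPKM in epiblast, and 201 and 283 FPKM in E5.5 visceral endoderm, against 21.3 and 10.8 FPKM in epiblast. Its log2 folds were 5.18 ± 0.63 (SE), adjusted p = 3.75e-06 and 3.88 ± 0.63 (SE), adjusted p = 5.96e-05 at these days. Epiblast libraries thus held more Ctsc than Ctsh at both days, and all lay below visceral endoderm. Ctsl, the endopeptidase that was the most abundant lysosomal transcript of 9 of the 11 in vivo tissues, had 1380 and 1175 FPKM in E6.5 visceral endoderm, against 120.4 and 110.3 FPKM in epiblast. Its log2 fold was 3.45 ± 0.44 (SE), adjusted p = 6.96e-06 at E6.5 and 5.5 ± 0.44 (SE), adjusted p = 1.8e-08 in culture, where visceral endoderm had 1144 and 1937 FPKM and epiblast 26.0 and 39.3 FPKM. Ctsb, which trims proteins from their carboxyl end as well as cutting within them, had 224 and 249 FPKM in E6.5 visceral endoderm, against 17.9 and 18.4 FPKM in epiblast, a log2 fold of 3.63 ± 0.49 (SE), adjusted p = 1.32e-05. Ctsz, a carboxypeptidase, had 405 and 492 FPKM in E6.5 visceral endoderm, against 70.8 and 72.3 FPKM in epiblast, a log2 fold of 2.62 ± 0.55 (SE), adjusted p = 0.00142. In each of these cathepsins both endoderm libraries lay above both epiblast libraries. The remaining tested cathepsins, Ctsf and Ctso, ran in vivo from 0 to 8.68 FPKM and from 0 to 2.14 FPKM, and neither passed in any endoderm comparison. The 9 rodent-specific placental cathepsins, close relatives of Ctsl, did not reach the level for testing.

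Legumain (Lgmn), the asparaginyl endopeptidase that matures several cathepsins, followed the same pattern. Lgmn had 739 and 789 FPKM in E6.5 visceral endoderm, against 18.1 and 18.1 FPKM in epiblast, and 255 and 364 FPKM in E5.5 visceral endoderm, against 13.4 and 10.3 FPKM in epiblast. The log2 folds were 5.33 ± 0.45 (SE), adjusted p = 4.06e-08 and 4.58 ± 0.45 (SE), adjusted p = 2.95e-07. In E7.5 endoderm its libraries had 680.3 and 638 FPKM, against 9.28 to 26.4 FPKM in the other tissues, and again no library lay between. Ctsa, the carboxypeptidase that also protects the sialidase Neu1, was higher by 1.87 at E6.5 and 1.51 at E5.5 on the log2 scale, and the tripeptidyl peptidase Tpp1 by 1.41 and 1.62. The Tpp1 call at E6.5 ended when any 1 of the 4 libraries was left out, and that of Ctsa when any but the first visceral endoderm library was. Ctsd, the main aspartic protease of lysosomes, stood apart. It had 105 and 129 FPKM in E6.5 visceral endoderm, against 89.3 and 83.6 FPKM in epiblast, and 33.9 and 71.2 FPKM in E5.5 visceral endoderm, against 87.0 and 40.2 FPKM in epiblast. These libraries overlapped at E5.5, and log2 folds of 0.42 and -0.26 did not pass (adjusted p = 0.647 and 0.72). In E7.5 endoderm it had 151 and 141 FPKM, against 56.2 to 99.0 FPKM in the other tissues, with no overlap, and its log2 fold of 0.88 did not pass (adjusted p = 0.173). In culture Ctsd did pass, with 171 and 270.3 FPKM in visceral endoderm and 35.5 and 49.9 FPKM in epiblast, a log2 fold of 2.32 ± 0.49 (SE), adjusted p = 0.00134.

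**Figure D3:**
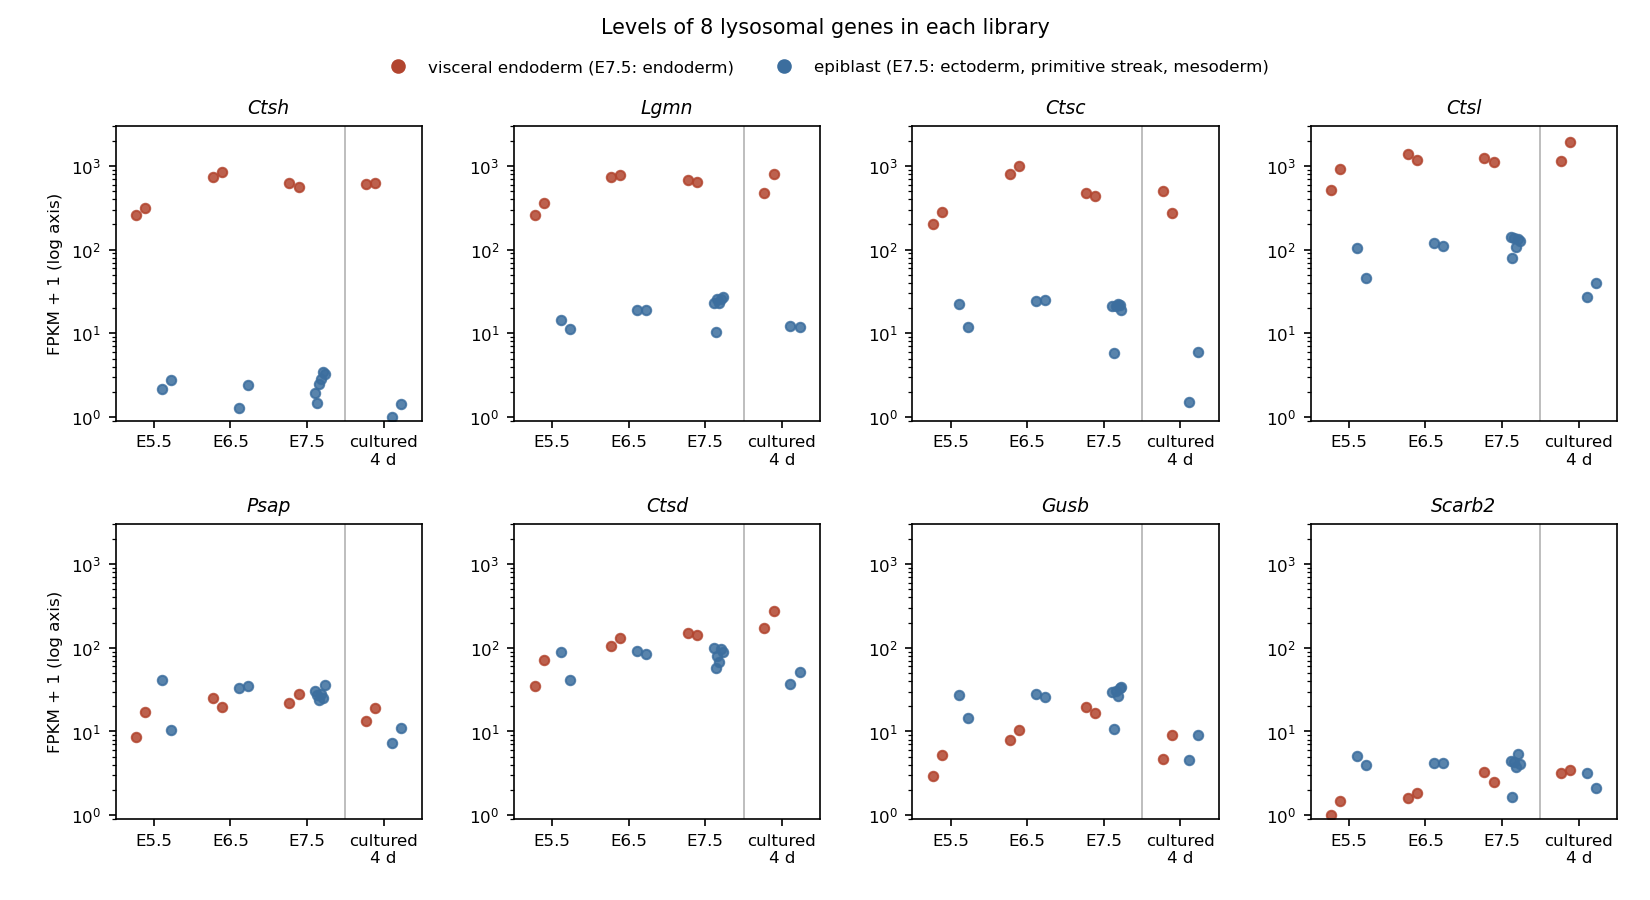
FPKM + 1 on a log axis of 8 lysosomal genes in single libraries (points) at E5.5, E6.5 and E7.5 and, right of the line, after 4 days of culture, with visceral endoderm (endoderm at E7.5) left of epiblast (ectoderm, primitive streak and mesoderm at E7.5). Ctsh, Lgmn, Ctsc and Ctsl separate by tissue at every time, Ctsd overlaps at E5.5 and not at the other times, and points of Gusb and Scarb2 lie lower in E5.5 and E6.5 visceral endoderm than in epiblast.

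Glycosidases and lipid enzymes, which strip sugars from glycoproteins and glycolipids and split stored lipids, differed less uniformly. Of 10 genes, 4 passed as higher at E6.5, 2 at E5.5, 6 at E7.5 and 8 in culture. The shares of all genes that passed as higher were 9.58%, 9.6%, 10.3% and 13.6%, in the same order. Lipa, the acid lipase that releases cholesterol and fatty acids from lipoproteins, had 47.0 and 49.1 FPKM in E6.5 visceral endoderm, against 6.38 and 5.28 FPKM in epiblast. Its log2 fold was 2.85 ± 0.44 (SE), adjusted p = 6.04e-05. At E5.5 it had 12.5 and 7.79 FPKM in visceral endoderm, against 2.98 and 0.376 FPKM in epiblast, with a log2 fold of 2.22 ± 0.44 (SE), adjusted p = 0.000389. Neu1, the sialidase, had 22.9 and 26.5 FPKM in E6.5 visceral endoderm, against 3.72 and 3.63 FPKM in epiblast, a log2 fold of 2.46 ± 0.67 (SE), adjusted p = 0.0111. That call did not hold with a pseudocount of 0.1 (adjusted p = 0.127). It also ended without either epiblast library or without the second visceral endoderm library. Gaa, which releases glucose from glycogen and whose loss causes Pompe disease in people, had 10.5 and 14.5 FPKM in E6.5 visceral endoderm, against 1.56 and 1.64 FPKM in epiblast, a log2 fold of 2.36 ± 0.49 (SE), adjusted p = 0.00133. Glb1, the β-galactosidase, was higher by 1.57 at E6.5 and 1.64 at E7.5. Its E6.5 call ended when any 1 of the 4 libraries was left out.

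Hexa, Asah1, Gla and Man2b1 passed only at E7.5 or in culture among these 4 comparisons. Hexa, a subunit of β-hexosaminidase, had 82.7 and 95.9 FPKM in E6.5 visceral endoderm and 25.4 and 23.7 FPKM in epiblast, and its log2 fold of 1.82 did not pass (adjusted p = 0.0979), while in E7.5 endoderm a log2 fold of 1.82 did (adjusted p = 0.0437). The E7.5 call ended when any 1 of 7 of the 8 libraries was left out. Asah1, the acid ceramidase, passed at E7.5 and in culture, with log2 folds of 1.85 and 1.85. Gla, the α-galactosidase A, and Man2b1, the lysosomal α-mannosidase, passed in culture, with log2 folds of 1.84 and 2.07. Psap, the precursor of the saposins that present lipids to these enzymes, passed in 0 of the 4 comparisons. It had 24.1 and 18.8 FPKM in E6.5 visceral endoderm, against 32.5 and 34.1 FPKM in epiblast.

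Gusb, the β-glucuronidase that is widely used as a reference gene, ran against the rest. It had 1.96 and 4.29 FPKM in E5.5 visceral endoderm, against 25.9 and 13.4 FPKM in epiblast, and 6.92 and 9.51 FPKM in E6.5 visceral endoderm, against 27.2 and 25 FPKM in epiblast. All endoderm libraries lay below all epiblast libraries. The log2 fold was -2.32 ± 0.57 (SE), adjusted p = 0.00279 at E5.5, and at E6.5 a log2 fold of -1.57 missed the threshold (adjusted p = 0.062). In culture Gusb had 3.74 and 7.98 FPKM in visceral endoderm and 3.55 and 8.09 FPKM in epiblast, and those libraries overlapped. Scarb2, a membrane protein that carries β-glucocerebrosidase to lysosomes, was listed at 0 and 0.472 FPKM in E5.5 visceral endoderm, against 4.13 and 3.02 FPKM in epiblast. At E6.5 it had 0.585 and 0.815 FPKM in visceral endoderm, against 3.17 and 3.25 FPKM in epiblast. Its log2 fold was -1.90 ± 0.46 (SE), adjusted p = 0.00228 at E5.5 and -1.31 at E6.5, where it did not pass (adjusted p = 0.0508). In culture Scarb2 had 2.21 and 2.45 FPKM in visceral endoderm, against 2.16 and 1.1 FPKM in epiblast. In E7.5 endoderm Scarb2 had 2.28 and 1.475 FPKM, against 0.642 to 4.42 FPKM in the other tissues. Gusb had 18.6 and 15.7 FPKM there, against 9.73 to 32.7 FPKM. Neither gene passed at E7.5 or in culture.

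Of the 7 membrane proteins, 3 passed as higher in all 4 endoderm comparisons: Cd63, Lamp1 and Lamp2. Cd63, a tetraspanin of late endosomes and lysosomes, had 198 and 132 FPKM in E6.5 visceral endoderm, against 13.4 and 16.3 FPKM in epiblast, a log2 fold of 3.37 ± 0.39 (SE), adjusted p = 2.1e-06. Lamp2, which also serves in autophagy, had 43.4 and 55.3 FPKM in E6.5 visceral endoderm, against 14.3 and 10.5 FPKM in epiblast, a log2 fold of 1.91 ± 0.34 (SE), adjusted p = 0.000322. The visceral endoderm libraries of Cd63 and Lamp2 lay above those of epiblast. Lamp1, the major membrane glycoprotein, had 102 and 157 FPKM in E5.5 visceral endoderm, against 9.44 and 7.31 FPKM in epiblast, and 29.4 and 37.5 FPKM in E6.5 visceral endoderm, against 6.7 and 10.6 FPKM in epiblast. The log2 fold was 3.78 ± 0.49 (SE), adjusted p = 6.08e-06 at E5.5 and 1.85 ± 0.49 (SE), adjusted p = 0.00892 at E6.5. The E6.5 call ended without the first epiblast or the second visceral endoderm library. Visceral endoderm libraries lay above epiblast at both days, and Lamp1 and Npc1 were the 2 genes with their highest in vivo mean in E5.5 visceral endoderm. Mcoln1, the calcium channel through which lysosomes signal, was higher by 1.38 at E6.5, 1.31 at E7.5 and 2.21 in culture, and its E6.5 call ended when any 1 of the 4 libraries was left out. Laptm4a, a small protein that sits in the membrane of late endosomes and lysosomes, passed in culture alone of these comparisons, at 1.23. Cd68, a glycoprotein typical of macrophages, stayed at 0.226 to 1.95 FPKM from E5.5 to E7.5 and passed in none of them.

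Npc1 and Npc2, which together pass cholesterol out of the lysosome, were both higher in visceral endoderm. Npc1, in the membrane, had 18.2 and 17.3 FPKM in E5.5 visceral endoderm, against 3.67 and 0.72 FPKM in epiblast, and 11.6 and 16.9 FPKM in E6.5 visceral endoderm, against 4.25 and 3.27 FPKM in epiblast. The log2 folds were 2.73 ± 0.45 (SE), adjusted p = 6.64e-05 and 1.67 ± 0.45 (SE), adjusted p = 0.0103. The E6.5 call ended without the second epiblast or the second visceral endoderm library, and with a pseudocount of 0.1 (adjusted p = 0.0652). Npc2, which is soluble, had 107 and 115 FPKM in E6.5 visceral endoderm, against 30.2 and 33.4 FPKM in epiblast, a log2 fold of 1.77 ± 0.49 (SE), adjusted p = 0.0129. The Npc2 call ended when any 1 of the 4 libraries was left out. At E7.5 Npc1 passed with a log2 fold of 1.79, and Npc2, at 1.06, did not (adjusted p = 0.0806).

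Tfeb itself was scarce but unevenly spread. It had 5.88 and 6.76 FPKM in E6.5 visceral endoderm, against 0.137 and 0.068 FPKM in epiblast, a log2 fold of 2.73 ± 0.59 (SE), adjusted p = 0.00191. In E7.5 endoderm it had 6.79 and 7.08 FPKM, against 0.0598 to 0.298 FPKM in the other tissues, a log2 fold of 2.75 ± 0.48 (SE), adjusted p = 0.000241. At E5.5 a log2 fold of 1.44 missed the threshold (adjusted p = 0.0545). Endoderm libraries lay above the others at both later days. Of the genes with a window, 7 of the 10 with CACGTG and 9 of the 17 tested without it were higher in E6.5 visceral endoderm, with median log2 folds of 1.71 and 1.77. In E5.5 visceral endoderm the counts were 4 of 10 with the word and 8 of 17 without, in E7.5 endoderm 7 of 10 and 9 of 17, and in cultured visceral endoderm 9 of 10 and 12 of 17. The medians with and without the word were 0.75 and 1.36 at E5.5, 1.74 and 1.40 at E7.5, and 2.38 and 2.56 in culture, so their order was not the same at every time. These counts are a description, and no difference between the groups of genes was tested.

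Other genes of the lysosomal system were read from lists. Of 16 genes of the proton pump, 8 were higher in E6.5 visceral endoderm and 0 lower, 10 were higher in E7.5 endoderm, and 14 in culture, with 0 lower in either. Its median log2 fold was 1.22 at E6.5, beside -0.06 over all genes. The membrane subunits Atp6v0a1 and Atp6v0b were higher by 2.58 and 1.96, the membrane subunit Atp6v0e by 1.18 and the accessory subunit Atp6ap1 by 1.57, with adjusted p of 1.29e-05, 1.39e-05, 0.000892 and 0.00739. At E5.5, 3 pump genes were higher, 3 were lower and 10 did not pass. Of 27 tested hydrolases and cofactors outside the 32 genes, 7 were higher at E6.5, 8 at E5.5, 11 at E7.5 and 14 in culture, and 0 were lower. At E6.5 these were led by Arsa, the arylsulfatase that degrades sulfatide, at 2.89, and Manba, the β-mannosidase, at 3.03. Of 13 other tested membrane proteins, 3 were higher at E6.5, 0 at E5.5, 6 at E7.5 and 8 in culture. For these lists, the shares of all genes were 9.58% higher and 6.95% lower at E6.5, and 9.6% and 27.1% at E5.5. They were 10.3% and 1.93% at E7.5, and 13.6% and 10.8% in culture.

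Of 14 tested genes of the mannose 6-phosphate route, which tags and carries the enzymes, 1 was higher and 1 lower at E6.5. They were the adaptor subunit Ap1b1 (1.06) and the sorting receptor Sort1 (-1.14), against 9.58% and 6.95% of all genes. At E5.5 the receptor Igf2r alone passed, at 1.64. Relatives of Tfeb and genes of its control by mTORC1 went both ways. At E6.5, 1 of 16 was higher and 2 were lower, against 9.58% and 6.95% of all genes. At E5.5, 1 was higher and 4 were lower, against 9.6% and 27.1% of all genes. Tfec was higher by 4.58 at E6.5, with 23.9 and 24.1 FPKM in visceral endoderm and 0 and 0.0892 FPKM in epiblast, whereas Tfe3 and the nutrient-sensing GTPase Rragd were lower, with log2 folds of -1.52 and -3.21. The adjusted p was 5.71e-06 for Tfec, 0.00928 for Tfe3 and 0.000466 for Rragd. Tfec libraries of the 2 tissues did not overlap. Of 7 endocytic receptors and their partners, 5 were higher at E5.5 and 5 at E6.5, where Amn and Cubn, a pair that takes up protein and is also on the visceral endoderm marker list, had log2 folds of 7.60 and 5.51. Both tested cystatins, which block cysteine cathepsins, were also higher: Cst3 had a log2 fold of 2.23 and Cstb of 1.56 at E6.5 (adjusted p = 5.33e-06 and 0.00159).

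**Figure D4:**
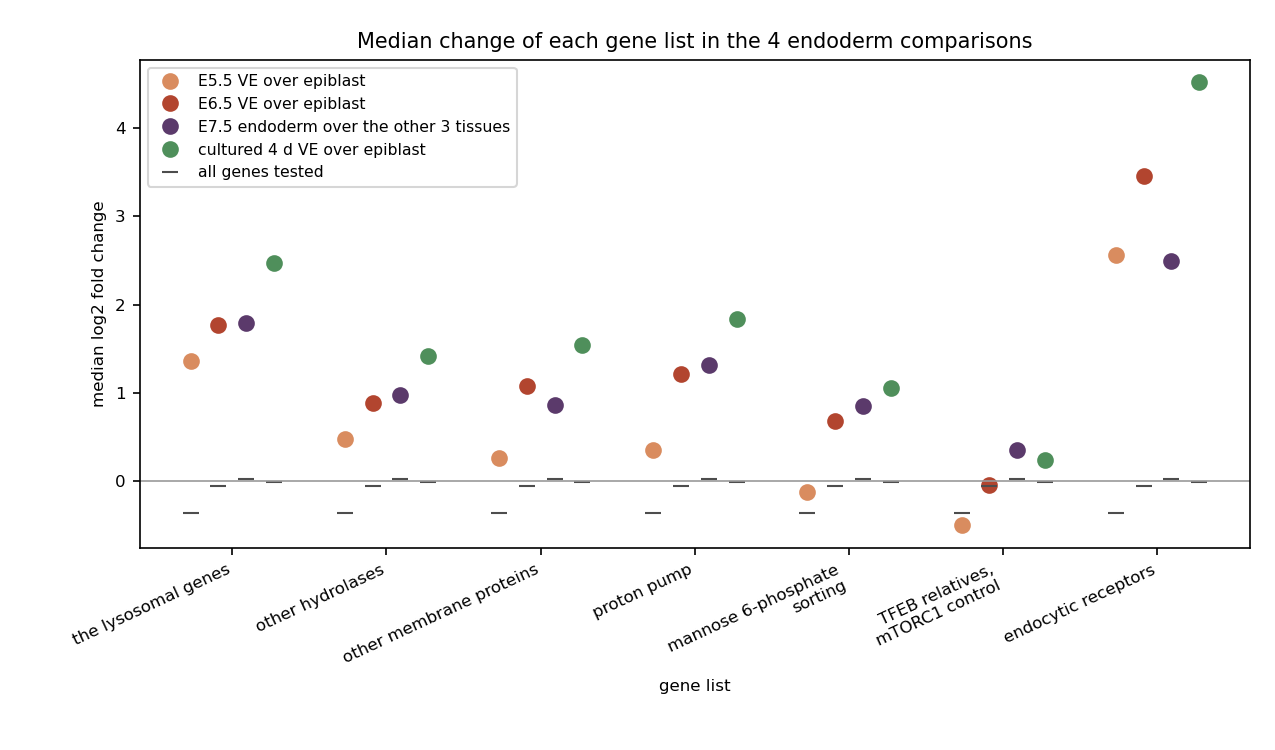
Median log2 fold of the lysosomal genes and of 6 further gene lists in the 4 endoderm comparisons (colours), with short dashes at the median of all genes tested in the same comparison. Every list but the TFEB relatives lies above the all-gene median in all 4 comparisons, and that list lies below it at E5.5.

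E6.5 visceral endoderm was higher than E5.5 visceral endoderm for 5 lysosomal genes and lower for 1. Lipa had 47.0 and 49.1 FPKM at E6.5, against 12.5 and 7.79 FPKM at E5.5, a log2 fold of 2.17 ± 0.44 (SE), adjusted p = 0.00109. Ctsc, Lgmn, Laptm4a and Asah1 also passed as higher, with log2 folds of 1.92, 1.32, 1.69 and 1.22. Laptm4a had 168 and 169.9 FPKM at E6.5, against 62.0 and 43.1 FPKM at E5.5, and Asah1 had 55.6 and 70.1 FPKM, against 19.1 and 35.9 FPKM. Libraries of the 2 days did not overlap for these genes. Lamp1 alone passed as lower, with a log2 fold of -1.90 (adjusted p = 0.00601). These 5 higher and 1 lower stood against 24.7% and 2.49% of all genes, and the median of the 31 genes was 0.90 beside 0.50 over all genes. The split rested on the scaling of libraries: with quantile normalization 1 was higher and 2, Lamp1 and Npc1, were lower, and with FPKM rescaled to a common total 1 was higher and 1 lower. Lipa passed under both, with log2 folds of 1.29 and 1.66, as did Lamp1, with -2.73 and -2.51, whereas Asah1, Ctsc, Laptm4a and Lgmn passed under neither. The count also fell to 2 without the first E6.5 visceral endoderm library and to 3 without the second, or without the first E5.5 library.

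In epiblast, 0 of 31 genes passed between E6.5 and E5.5 in limma, where 0.43% of all genes were higher and 0.548% lower, and 3 had an unadjusted p under 0.05. From E6.5 visceral endoderm to E7.5 endoderm, 0 of 31 passed, against 3.39% of all genes higher and 0.875% lower, and 0 had an unadjusted p under 0.05. The largest shift in that step was that of Ctsc, with 471 and 431 FPKM in E7.5 endoderm, against 809.7 and 1004 FPKM in E6.5 visceral endoderm, and its log2 fold of -1.0 did not pass (adjusted p = 0.683). Whether the visceral endoderm difference itself grew was tested as a difference of differences. From E5.5 to E6.5, 0 of 31 genes passed, against 6.07% of all genes in either direction, and 3 had an unadjusted p under 0.05. Lamp1 came nearest, at -1.92 with an SE of 0.69 (adjusted p = 0.0942). Between culture and E6.5, 0 of 31 passed, against 0.437% of all genes, and 10 had an unadjusted p under 0.05. The median of that second difference was 1.10, beside 0.01 over all genes, and Ctsl had the smallest p, at 2.04 (adjusted p = 0.216).

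In the E3.5 blastocyst, trophectoderm and inner cell mass differed in both directions. Trophectoderm, which forms the outer wall, was higher for Psap, Neu1, Tfeb and Gla and lower for Ctsb, Ctsz, Cd68, Ctso, Ctsl, Mcoln1 and Lamp2. These 4 higher and 7 lower stood against 7.75% and 9.54% of all genes. With quantile normalization the split was 6 higher and 6 lower, with Lamp1 and Npc2 gained as higher and Lamp2 lost. Psap had 588 and 874 FPKM in trophectoderm, against 141 and 111 FPKM in inner cell mass, a log2 fold of 2.51 ± 0.66 (SE), adjusted p = 0.0091. Neu1 had 22.1 and 51.9 FPKM in trophectoderm, against 1.76 and 2.07 FPKM in inner cell mass, a log2 fold of 3.59 ± 0.67 (SE), adjusted p = 0.000535. Tfeb had 15.9 and 22.8 FPKM in trophectoderm, against 3.61 and 2.23 FPKM in inner cell mass, a log2 fold of 2.38 ± 0.59 (SE), adjusted p = 0.0063. In all 3 genes both trophectoderm libraries were the higher ones, although they differed from each other by more FPKM than the inner cell mass pair. As a ratio, the inner cell mass pair was the wider one for Tfeb. Gla had 35.7 and 36.7 FPKM in trophectoderm, against 12.7 and 12.4 FPKM in inner cell mass, a log2 fold of 1.46.

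Among the genes lower in trophectoderm, Ctsb had 9.99 and 15.2 FPKM, against 47.5 and 41.4 FPKM in inner cell mass, a log2 fold of -1.76 ± 0.49 (SE), adjusted p = 0.0132. Ctso, a cathepsin of low abundance, was listed at 0 and 0 FPKM in trophectoderm, against 1.12 and 1.78 FPKM in inner cell mass (adjusted p = 2.1e-06). Ctsz had 2.48 and 10.5 FPKM in trophectoderm, against 31.5 and 9.73 FPKM in inner cell mass, and here the libraries overlapped although the test passed (adjusted p = 0.0493). Ctsl had 125 and 129 FPKM in trophectoderm, against 277 and 340.0 FPKM in inner cell mass, a log2 fold of -1.26. Cd68, Mcoln1 and Lamp2 were lower, with log2 folds of -1.28, -1.21 and -1.12. The 8 markers of trophectoderm and extraembryonic ectoderm summed to 1435 to 3091 FPKM in trophectoderm, against 199 to 269 FPKM in inner cell mass. Of all these calls, those of Ctso and Neu1 held whichever library was left out. Ctso, however, reached 1 FPKM only in E3.5 inner cell mass and E7.5 mesoderm and entered the test through them. Its values elsewhere were near 0, so its small p and the holding of its call add no separate support. The count of 11 fell to 4 without the first inner cell mass library, 3 without the second and 4 without the first trophectoderm library, and to 5 when only the 2 tissues were fitted.

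**Figure D5:**
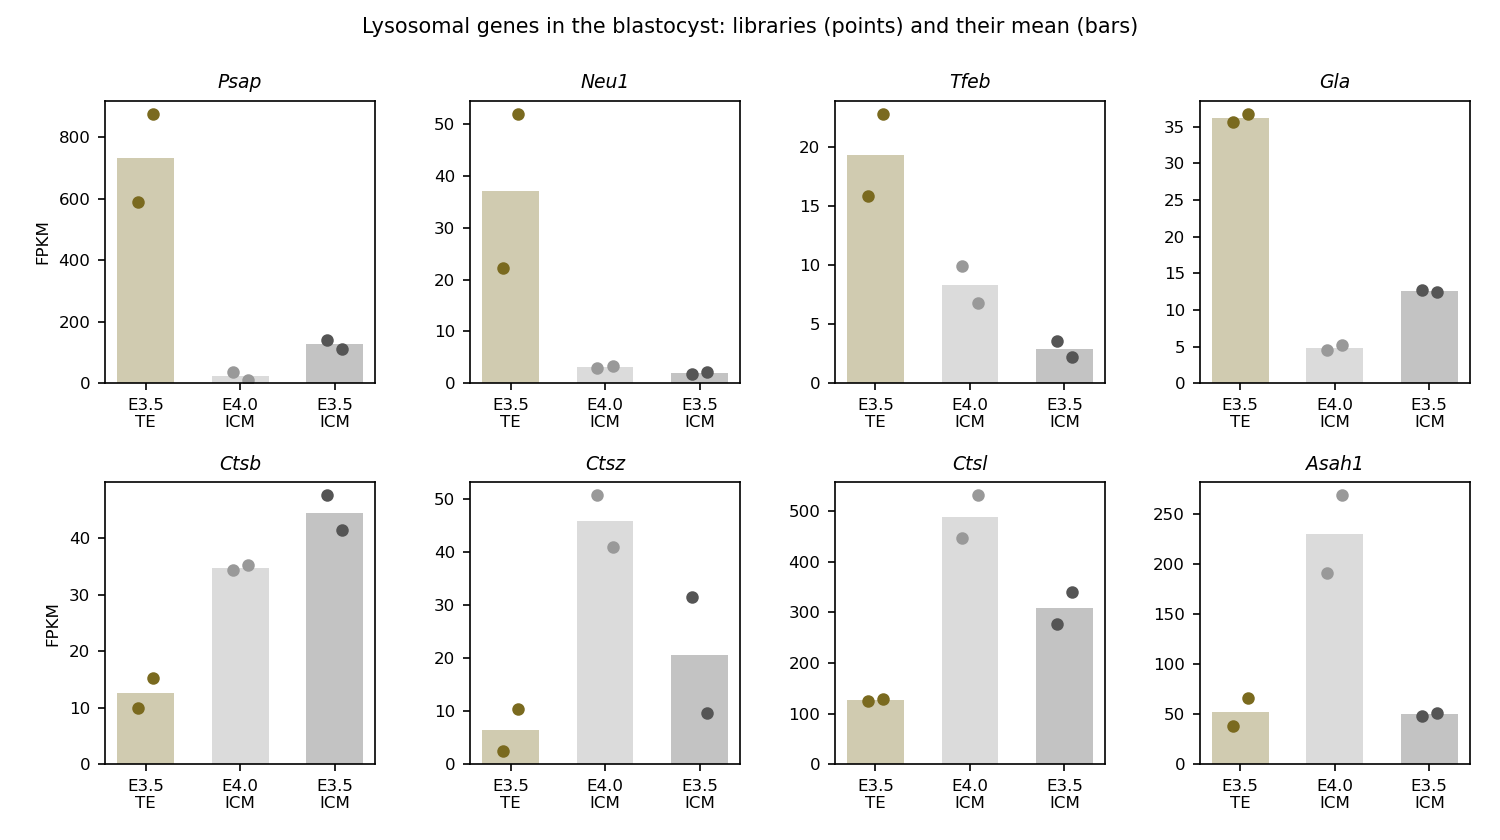
FPKM of 8 lysosomal genes in single libraries (points) and their mean (bars) in E3.5 trophectoderm (TE), E4.0 inner cell mass and E3.5 inner cell mass (ICM). Psap, Neu1, Tfeb and Gla are highest in both trophectoderm libraries, Ctsb, Ctsz and Ctsl have their lowest mean there, and Asah1 is highest in E4.0 inner cell mass.

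From E3.5 to E4.0, when the inner cell mass parts into epiblast and primitive endoderm, 2 of 31 lysosomal genes were higher and 5 lower, against 15.8% and 4.8% of all genes. With quantile normalization 1 was higher and 7 lower, with Lamp2 and Scarb2 gained as lower and Man2b1 lost. Asah1 had 191 and 268 FPKM in E4.0 inner cell mass, against 48.6 and 51.7 FPKM at E3.5, a log2 fold of 2.15 ± 0.45 (SE), adjusted p = 0.00139. That made E4.0 inner cell mass the tissue with the most Asah1 of the in vivo table. Psap had 36.7 and 9.85 FPKM in E4.0 inner cell mass, against 141 and 111 FPKM at E3.5, a log2 fold of -2.64 ± 0.66 (SE), adjusted p = 0.00574. Ctsc had 19.9 and 33.4 FPKM in E4.0 inner cell mass, against 134 and 98 FPKM at E3.5, a log2 fold of -2.10 ± 0.63 (SE), adjusted p = 0.0186. Cd63 had 128 and 171 FPKM, against 415 and 337 FPKM at E3.5, a log2 fold of -1.33 ± 0.39 (SE), adjusted p = 0.0164. Libraries of the 2 days did not overlap in these 4 genes. Ctso and Gla were lower, with log2 folds of -1.17 and -1.21, and Man2b1 was higher, with 1.34. Here too Ctso had entered the test only through groups where it was high, E3.5 inner cell mass among them. The call of Asah1 held whichever library was left out. The count of 7 fell to 3 without the first E3.5 or the first E4.0 library and to 2 without the second E3.5 library. The 8 primitive endoderm markers summed to 717 to 936 FPKM at E4.0, against 211 to 249 FPKM at E3.5, and the 8 markers of trophectoderm and extraembryonic ectoderm to 11.5 to 24.9 FPKM, against 199 to 269 FPKM. Their part in these differences was not tested.

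In E5.5 epiblast 0 of 31 genes were higher than in E4.0 inner cell mass and 16 were lower, against 8.67% and 8.94% of all genes. In E5.5 visceral endoderm 10 were higher than in E4.0 inner cell mass and 4 lower, against 9.66% and 25.7% of all genes. The comparisons share the E4.0 libraries. Cells of E4.0 were also lysed directly and RNA of E5.5 passed a column, and stage and method cannot be told apart. The median log2 fold was -1.42 in epiblast, beside 0.05 over all genes, and -0.31 in visceral endoderm, beside -0.31. The visceral endoderm median depended on the scaling, at 0.34 beside -0.02 with quantile normalization and 0.002 beside -0.20 with a common total. The 8 primitive endoderm markers summed to 39.7 to 51.1 FPKM in E5.5 epiblast and 395 to 786 FPKM in E5.5 visceral endoderm, against 717 to 936 FPKM in E4.0 inner cell mass. The 7 parietal endoderm markers summed to 42.9 to 58.5 FPKM in E5.5 epiblast and 548 to 1094 FPKM in E5.5 visceral endoderm, against 1090 to 1236 FPKM in E4.0 inner cell mass. Their part in these differences was not tested.

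Asah1, Glb1, Scarb2 and Cd68 were lower in both tissues. Asah1 had 34.0 and 19.2 FPKM in E5.5 epiblast and 19.1 and 35.9 FPKM in E5.5 visceral endoderm, against 191 and 268 FPKM in E4.0 inner cell mass, log2 folds of -3.10 and -3.06. Glb1 had 6.55 and 2.92 FPKM in E5.5 epiblast and 4.83 and 13.2 FPKM in E5.5 visceral endoderm, against 36.4 and 46.3 FPKM, log2 folds of -2.95 and -2.21. The E5.5 libraries of Asah1 and Glb1 lay below those of E4.0 in both tissues. Cd63 had 15.3 and 11.6 FPKM in epiblast and 99.9 and 123 FPKM in visceral endoderm, against 128 and 171 FPKM, and passed in epiblast alone, with a log2 fold of -3.38 ± 0.39 (SE), adjusted p = 2.45e-06. Its visceral endoderm libraries lay below those of the inner cell mass and far above those of epiblast. Ctsl had 103 and 45.5 FPKM in epiblast and 516 and 930.5 FPKM in visceral endoderm, against 446 and 531 FPKM. Its log2 fold of -2.81 passed in epiblast, and 0.51 did not in visceral endoderm (adjusted p = 0.39). Tfeb, Ctsa, Hexa, Tpp1 and Npc2 were lower in epiblast too, with log2 folds of -2.87, -2.50, -2.38, -2.0 and -1.91. The calls of Hexa and Scarb2 in epiblast ended whichever library was left out.

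A smaller set was higher in visceral endoderm than in E4.0 inner cell mass. Ctsh had 255 and 317 FPKM in E5.5 visceral endoderm, against 0.757 and 0.442 FPKM in E4.0 inner cell mass, a log2 fold of 7.49 ± 0.64 (SE), adjusted p = 2.63e-08. Ctsc and Lgmn were higher by 3.16 and 2.84. Lipa, listed at 0 and 0 FPKM in E3.5 and 0.194 and 0.755 FPKM in E4.0 inner cell mass, had 12.5 and 7.79 FPKM in E5.5 visceral endoderm, a log2 fold over E4.0 of 2.91 ± 0.44 (SE), adjusted p = 2.82e-05. Lamp1, Npc1, Ctsz, Neu1, Ctsb and Laptm4a completed the group, with log2 folds between 1.32 and 2.36. The calls of Ctsb and Neu1 ended without either E4.0 library or without the second E5.5 visceral endoderm library. That of Laptm4a ended without the second E4.0 or the first E5.5 visceral endoderm library. The Neu1 call also did not hold in limma with a pseudocount of 0.1 (adjusted p = 0.172). The count in epiblast was 9 in place of 16 without the second E5.5 epiblast library, and the 16 and 14 became 8 and 8 when only the 2 tissues of a comparison were fitted.

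Mesoderm and ectoderm of E7.5 differed in 1 of 31 lysosomal genes, against 3.09% of all genes higher and 1.39% lower in mesoderm. Ctso had 1.99 and 2.14 FPKM in mesoderm, against 0.103 and 0.0838 FPKM in ectoderm, a log2 fold of 1.49 ± 0.15 (SE), adjusted p = 4.69e-07. Both mesoderm libraries lay above both of ectoderm, and mesoderm had the highest mean Ctso of the in vivo table. Ctso reached 1 FPKM only in the E7.5 mesoderm and E3.5 inner cell mass libraries, so it entered the test through groups where it was high. Its small SE and p rest largely on libraries with values near 0, and the call adds no separate support. When only the 2 tissues were fitted the count was 0, and without the first ectoderm library it was 3. Lamp2 had 28.4 and 26.9 FPKM in mesoderm, against 16.5 and 9.53 FPKM in ectoderm, and its log2 fold of 1.08 did not pass (adjusted p = 0.0809).

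In culture, embryos kept for 2 days had 4 lysosomal genes higher than embryos kept for 1 day and 0 lower, against 4.08% and 2.37% of all genes. With quantile normalization 5 were higher and 1 lower, with Ctsz gained as higher and Gla as lower. Ctsh had 35.5 and 5.2 FPKM after 2 days, against 0 and 4.48 FPKM after 1 day, a log2 fold of 2.68 ± 0.64 (SE), adjusted p = 0.0126. Cd68 had 6.89 and 3.96 FPKM after 2 days, against 0 and 0.303 FPKM after 1 day, a log2 fold of 2.45 ± 0.40 (SE), adjusted p = 0.000626. Gaa had 14.5 and 9.28 FPKM after 2 days, against 2.06 and 2.13 FPKM after 1 day, a log2 fold of 2.03 ± 0.49 (SE), adjusted p = 0.0142. Libraries did not overlap in these genes, but those of Ctsh came close and the pair after 2 days was wide apart. Lgmn had 52.7 and 40.1 FPKM after 2 days, against 5.15 and 23.4 FPKM after 1 day, a log2 fold of 1.94 ± 0.45 (SE), adjusted p = 0.0108. The 11 visceral endoderm markers summed to 125 to 174 FPKM after 2 days, against 0.29 to 32.1 FPKM after 1 day, and the 12 macrophage markers to 0.232 to 1.42 FPKM, against 0.0335 to 1.01 FPKM. The 8 primitive endoderm markers summed to 176 to 264 FPKM after 2 days, against 84.9 to 106 FPKM after 1 day. The 8 of trophectoderm and extraembryonic ectoderm summed to 1660 to 4249 FPKM after 2 days, against 1483 to 1592 FPKM after 1 day. The part of these markers in the differences was not tested. These groups had the widest pairs of the series, and the 4 calls became 0 when only these groups were fitted. More genes passed without the second library of either day. The Ctsh call ended without the first library of either day. That of Gaa ended without the first library of 2 days, and that of Lgmn without the first of 1 day.

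After 4 days of culture, 25 genes were higher in visceral endoderm, as given above. Lgmn had 474 and 798 FPKM in cultured visceral endoderm, against 11.4 and 10.8 FPKM in cultured epiblast, a log2 fold of 5.67 ± 0.45 (SE), adjusted p = 1.48e-08. Ctsc had 508 and 270.1 FPKM in cultured visceral endoderm, against 0.504 and 5.01 FPKM in epiblast, a log2 fold of 6.95 ± 0.63 (SE), adjusted p = 8.22e-08. Ctsb had 178 and 279.8 FPKM in cultured visceral endoderm, against 3.07 and 9.45 FPKM in epiblast, a log2 fold of 5.10 ± 0.49 (SE), adjusted p = 1.59e-07. In each, both visceral endoderm libraries lay above both of epiblast with a wide gap between them. Cd63 had 160.2 and 369 FPKM in cultured visceral endoderm, against 5.59 and 10.0 FPKM in epiblast, a log2 fold of 4.84 ± 0.39 (SE), adjusted p = 1.8e-08. Hexa had 133 and 109 FPKM in cultured visceral endoderm, against 6.88 and 9.37 FPKM in epiblast, a log2 fold of 3.75 ± 0.74 (SE), adjusted p = 0.000708. Ctsz, Neu1, Ctsa and Lamp2 followed with log2 folds of 4.61, 3.94, 3.67 and 3.25. Lamp1 had 622 and 604 FPKM in cultured visceral endoderm, against 66.0 and 100.5 FPKM in epiblast, a log2 fold of 2.90 ± 0.49 (SE), adjusted p = 0.000138, and it was the most abundant lysosomal transcript of cultured epiblast. The 6 genes that did not pass in culture were Ctsf, Ctso, Gusb, Psap, Cd68 and Scarb2, with log2 folds between -0.12 and 0.84. The count ran from 23 to 26 as single libraries were left out.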

How the data were processed

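The 30 RNA-seq libraries were analysed, and the STEM-seq, Hi-C and MethylC-seq samples were not analysed here. Per the submitters' processing notes, the tools included TopHat2 2.0.11 and Cufflinks 2.0.2 and the build was mm9. The authors deposited FPKM per gene and library in 3 tables of 22613, 22590 and 22592 rows. The in vivo table held 27 date-like names in place of symbols, which were dropped, and values up to 1e-06 were set to 0. Of 22563 shared genes, 13493 reached 1 FPKM in 2 or more libraries. Their log2(FPKM + 1) values were fitted in limma 3.58.1 (R 4.3.3, trended prior), with all 15 groups together, which left 15 residual degrees of freedom, and p-values were adjusted by Benjamini-Hochberg per comparison. The 13 comparisons and 2 differences of differences each lie within a table or set within-table differences beside each other.

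The 32 genes, the further lists and the tests were chosen with earlier results of these data known. Values in every library were given, per comparison, for up to 8 genes with the largest log2 fold among those that passed and had not been shown, and for exceptions to the common direction. From a further list, up to 4 genes with the smallest adjusted p were named, and some results are not reported here. Krt8 and Krt18 are named only as members of a marker list. Relative depth was read from the ratio of the lowest FPKM values of a gene between libraries of a table, and absolute depth is unknown. A library's FPKM summed to between 272055 and 486836 in vivo, 354191 and 405412 in the 4-day table, and 535833 and 580771 in the 1- and 2-day table. 0 pairs of libraries were identical. Promoter windows were matched by symbol, and a gene counted as holding a word if any of its windows did. The pipeline was tested on simulated data. The alternatives tried changed the pseudocount (0.1), the filter (none, or 5 FPKM), the scaling (quantile normalization, or a total of 1000000 per library), the model (a replicate block, or a fit restricted to the groups of a comparison) or the samples (each library omitted once). Python 3.11.15 with pandas 2.3.3 was used for summaries.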

Additional observations from a re-analysis of the deposited data

How the results depend on the processing

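0 of the gene calls reversed under any alternative run. With 2 libraries per group, leaving out 1 leaves a lone library that is assumed to vary like the other groups. A fit on only the groups compared, with 2 residual degrees of freedom for a pair, gave 10 genes in place of 17 for E5.5 visceral endoderm over epiblast, 5 in place of 11 for trophectoderm over inner cell mass, 8 for E5.5 visceral endoderm and 8 for E5.5 epiblast over E4.0 inner cell mass, 0 for mesoderm over ectoderm and for 2 over 1 days of culture, 1 for E7.5 endoderm over E6.5 visceral endoderm, 2 for the difference from E5.5 to E6.5 and 1 for that between culture and E6.5. A filter at 5 FPKM, which removes Ctso, left 0 for mesoderm over ectoderm. For E6.5 over E5.5 visceral endoderm, no filter and quantile normalization gave 3 and rescaling 2 in place of 6. Quantile normalization gave 1 for the difference from E5.5 to E6.5. The causes were not tested. Leaving out single libraries gave 11 to 15 genes for E6.5 visceral endoderm over epiblast, 1 to 3 for mesoderm over ectoderm, 3 to 9 for trophectoderm over inner cell mass, 2 to 5 for E4.0 over E3.5 inner cell mass, 9 to 13 for E5.5 epiblast over E4.0 inner cell mass, 2 to 8 for E6.5 over E5.5 visceral endoderm, 0 to 1 for E6.5 over E5.5 epiblast and 3 to 9 for 2 over 1 days of culture. Of 640 gene values with a library left out, 498 kept their call and 142 did not.

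Quantile normalization moved the median of all genes for E5.5 visceral endoderm over epiblast to -0.04 in place of -0.36, for E5.5 visceral endoderm over E4.0 inner cell mass to -0.02 in place of -0.31, for E4.0 over E3.5 inner cell mass to -0.001 in place of 0.27, and for E6.5 over E5.5 visceral endoderm to 0.05 in place of 0.50. There it turned the split of all genes to 543 higher and 948 lower, in place of 3334 and 336. The replicate numbers do not pair samples by any label, and same-numbered libraries correlated in their deviations between -0.09 and 0.36. With a replicate block, trophectoderm over inner cell mass had 8 genes in place of 11 and E5.5 epiblast over E4.0 inner cell mass 15 in place of 16, and 136 of 140 gene calls held. For genes of low level such as Scarb2, Tfeb and Ctso, a value listed at 0 cannot be told from a low one at an unknown depth.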

Other observations

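Levels of some lysosomal genes differed widely between libraries of a pair. Ctsf was listed at 0 and 6.35 FPKM in embryos cultured for 1 day and 11 and 0 FPKM in those cultured for 2 days, so each pair held a library at 0. Hexa and Neu1 were listed at 0 and 13.4 FPKM and 0 and 7.92 FPKM in the libraries of 1 day. Psap had 36.7 and 9.85 FPKM in the E4.0 inner cell mass pair and 40 and 9.36 FPKM in the E5.5 epiblast pair, wider than in any E7.5 tissue, where values ran from 20.8 to 34.6 FPKM.

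In trophectoderm, further lipid hydrolases or cofactors passed. The ganglioside activator Gm2a was higher than in E3.5 inner cell mass by 2.88 on the log2 scale, with 517 and 883 FPKM in trophectoderm and 77.6 and 107 FPKM in inner cell mass. The acid sphingomyelinase Smpd1 was higher by 2.90, with 189 and 231 FPKM in trophectoderm and 41.0 and 17.9 FPKM in inner cell mass, and the phospholipase Pla2g15 by 2.36 (adjusted p = 4.81e-05, 0.000425 and 0.00597). Libraries of trophectoderm lay above those of inner cell mass for Gm2a and Smpd1.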
